A study of Drosophila melanogaster with 3 samples.

Results

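The X chromosome carried 1167 of the 6485 binding peaks of the Drosophila zinc-finger protein Salr (Spalt-related) that the depositors kept by an irreproducible discovery rate threshold (the IDR list). The X peaks were all entries of that list on the X of the dm6 build, taken whatever their strength, and they were compared with the 5318 peaks on the autosomes. The libraries came from whole prepupae of 1 transgenic line, labelled salr-GFP, which stably expresses salr with a GFP at the C terminus. Chromatin was sonicated, with a labelled size range of 200 to 800 bp, and immunoprecipitated through the GFP tag in 3 libraries that the labels call biological replicates. Males and females were pooled, the age is given as unknown, and all libraries belong to this 1 group. The animals are whole organisms, so peaks of different tissues are added together, and because both sexes were pooled, X copy number and occupancy of the X cannot be told apart. The deposited notes name 1 control alignment behind all 3 replicate lists, so the replicates are not independent of it.

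Salr and its paralogue Salm are zinc-finger transcription factors of the Spalt family. They are known as targets of Decapentaplegic signalling that place wing veins, and they also act in photoreceptors, flight muscle, trachea and sensory organs. The X is the sex chromosome that female flies carry as a pair and males as a single copy. Males raise transcription of their X with the dosage compensation complex, which holds the acetyltransferase Mof and the noncoding RNAs roX1 and roX2 and is recruited at GA-rich sequences. In males, genes of the X therefore lie in chromatin that this complex marks.

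The base sequence under 3 of the strongest X summits is shown first, because the summits were AT-rich. A summit is the position of highest signal within a peak. Each run holds the summit and 50 bases on each side of it on the dm6 plus strand, read from the Release 6 genome, and capitals mark the word ATATT on either strand. The window of the third strongest X peak, at Ugalt, was passed over because it overlaps an annotated UTR.
CG32772 summit, chrX:4910370-4910470: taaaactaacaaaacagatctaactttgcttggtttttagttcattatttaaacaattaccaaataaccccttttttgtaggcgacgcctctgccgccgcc
lncRNA:CR44619 upstream summit, chrX:12751281-12751381: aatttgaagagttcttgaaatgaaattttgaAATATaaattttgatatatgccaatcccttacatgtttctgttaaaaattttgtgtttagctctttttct
lncRNA:CR44619 start-site summit, chrX:12752282-12752382: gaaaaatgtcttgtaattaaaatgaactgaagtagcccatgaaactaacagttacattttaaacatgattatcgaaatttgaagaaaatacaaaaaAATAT

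The first of these held no ATATT, and the other two held it once each. Of all X windows that reach 100 bases to each side of a summit, 69.2% held ATATT, against 70.8% of the autosomal ones. Windows of that length tiled over the X held it in 47.8% of cases, and autosomal ones in 48.9%. In the replicates the share at summits was 68.1% ± 2.58 on the X and 70.4% ± 2.38 on the autosomes (SD, n = 3), lower on the X in 3 of 3. The word was thus slightly less frequent at X summits, as it was over all windows of the X.

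Runs of A were more frequent at X summits, as they were on the X at large. The next set shows the 3 strongest X summits with a run of 8 or more A or T and no UTR in such a window, with the runs in capitals.
Mnt intron summit, chrX:3695249-3695449: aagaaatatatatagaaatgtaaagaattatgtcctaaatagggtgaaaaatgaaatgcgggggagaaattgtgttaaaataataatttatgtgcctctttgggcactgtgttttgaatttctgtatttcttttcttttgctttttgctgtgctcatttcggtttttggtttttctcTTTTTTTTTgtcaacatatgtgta
dnc summit, chrX:3255652-3255852: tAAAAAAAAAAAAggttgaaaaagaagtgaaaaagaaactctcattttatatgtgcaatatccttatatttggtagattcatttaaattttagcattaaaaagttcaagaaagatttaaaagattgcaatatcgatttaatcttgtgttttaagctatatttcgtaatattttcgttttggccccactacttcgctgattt
CG43658 upstream summit, chrX:17562031-17562231: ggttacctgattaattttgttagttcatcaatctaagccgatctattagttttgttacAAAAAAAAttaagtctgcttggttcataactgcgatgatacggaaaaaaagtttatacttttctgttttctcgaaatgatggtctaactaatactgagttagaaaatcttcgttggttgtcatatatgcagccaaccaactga

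A run of 8 A, on either strand, stood in 28.2% of the X windows (95% Wilson interval 25.7 to 30.8). The autosomal share was 18.1%, and the 4 large autosomal arms lay between 16.5% and 19.1%. The replicates gave 28.2% ± 1.91 on the X and 17.6% ± 0.244 on the autosomes (SD, n = 3), higher on the X in 3 of 3. A difference in the same direction was there over all windows, where 15.8% of all X windows and 9.43% of all autosomal windows held the run. The summits exceeded their own chromosome 1.78 times on the X and 1.92 times on the autosomes.

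The alternating CA repeat followed the same order. It is shown in capitals, on either strand, at the 2 strongest X summits that held it without a UTR.
pico summit, chrX:19850598-19850798: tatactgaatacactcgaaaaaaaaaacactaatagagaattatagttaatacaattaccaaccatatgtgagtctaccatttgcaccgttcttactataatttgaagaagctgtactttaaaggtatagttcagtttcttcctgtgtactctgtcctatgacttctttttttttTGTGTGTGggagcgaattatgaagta
Drak summit, chrX:11494866-11495066: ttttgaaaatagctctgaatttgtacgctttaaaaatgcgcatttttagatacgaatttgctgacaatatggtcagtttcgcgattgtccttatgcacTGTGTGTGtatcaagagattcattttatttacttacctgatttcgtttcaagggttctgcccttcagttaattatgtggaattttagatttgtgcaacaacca

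CACACACA stood in 5.57% of X windows and 3.76% of autosomal ones. All windows of the X held it in 5.77% of cases, within the Wilson interval of the X summits, 4.39 to 7.04. The replicates gave 6.08% ± 0.597 on the X and 3.90% ± 0.492 on the autosomes (SD, n = 3). X summits thus showed no clear enrichment for it over their chromosome. GAGAGAGA, the core of the sequence that recruits the dosage compensation complex, stood in 2.40% of X summits (1.67 to 3.45) and in 2.12% of autosomal summits. Over all windows it was found in 1.54% on the X and 1.04% on the autosomes. Windows flanking the summits held it in 2.96% of cases on the X and 1.71% on the autosomes. The shorter GAGAG word, which GAGA factor reads, was in 24.2% of X summits and 23.0% of autosomal ones, with 21.5% of all windows on both. Its share in the flanking windows was 24.2% on the X and 22.9% on the autosomes. On the X neither word was more frequent at IDR summits than in the flanks.

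AGATAA, a word read by GATA factors, stood in 13.0% of X summits and 15.4% of autosomal ones, with 14.6% to 16.5% on the large arms. It was lower on the X in 3 of 3 replicates, at 12.9% ± 1.11 against 15.1% ± 0.195 (SD, n = 3), and all windows held it in 9.79% of cases on the X and 11.1% on the autosomes. CATATG stood in 8.57% of X and 7.30% of autosomal summits. CAGCTG stood in 6.77% and 6.24%, but in the replicates it was lower on the X in 3 of 3, at 6.18% ± 0.581 against 6.85% ± 0.179. TATCGATA (1.20% and 0.771%), GGTCACAC (0.771% and 0.715%) and CAGGTAG (0.686% and 0.621%) were rare in both. A match describes the sequence and is not a binding site. Among words of 6 bases found in at least 2% of X summits, 6 had the largest ratio of X to autosomes and were chosen for it. The ratio was 1.81 for CATACG, 1.72 for CACGCG and 1.71 for CAACGG. It was 1.64 for ACACCG, 1.63 for CGCTAG and 1.62 for CACCGC. In the replicates it ran from 1.40 to 1.63 for CATACG, from 1.56 to 1.92 for CACGCG and from 1.23 to 1.68 for CAACGG. It ran from 1.13 to 1.59 for ACACCG, from 1.15 to 1.55 for CGCTAG and from 1.32 to 1.41 for CACCGC. In all windows of the same chromosomes the ratios of these words were between 1.02 and 1.17. All 6 hold a CpG.

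The GC content within 100 bases of the summit was 35.4% on the X and 34.9% on the autosomes. The X lay within the range of the large arms, 34.2% to 35.5%. Arm 2R was above the X in the IDR list and in each replicate. Against the autosomes as a whole the X was higher in 3 of 3 replicates, by 0.518 ± 0.0651 percentage points (SD, n = 3). With 3 replicates the exact sign-flip permutation test, two-sided, cannot give a p below 0.25, so no comparison between X and autosomes here can reach 0.05; this one gave p = 0.25. The difference was larger among stronger peaks, at 1.39 points in the stronger 3242 peaks of the list and 1.93 points among the 1000 strongest peaks.

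Around the summit the order turned. At 400 bp before it, windows of 50 bases to each side held 43.5% GC on the X and 45.2% on the autosomes, and at 300 bp after it 44.2% and 45.3%. The drop from windows 1000 bp away to the summit was -5.39 points on the X and -6.46 on the autosomes, where the 4 large arms ran from -6.73 to -6.26. In the replicates the drop was -5.20 ± 0.498 on the X and -6.32 ± 0.627 on the autosomes. The X as a whole held 42.5% GC and the autosomes 42.1%.

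**Figure D1:**
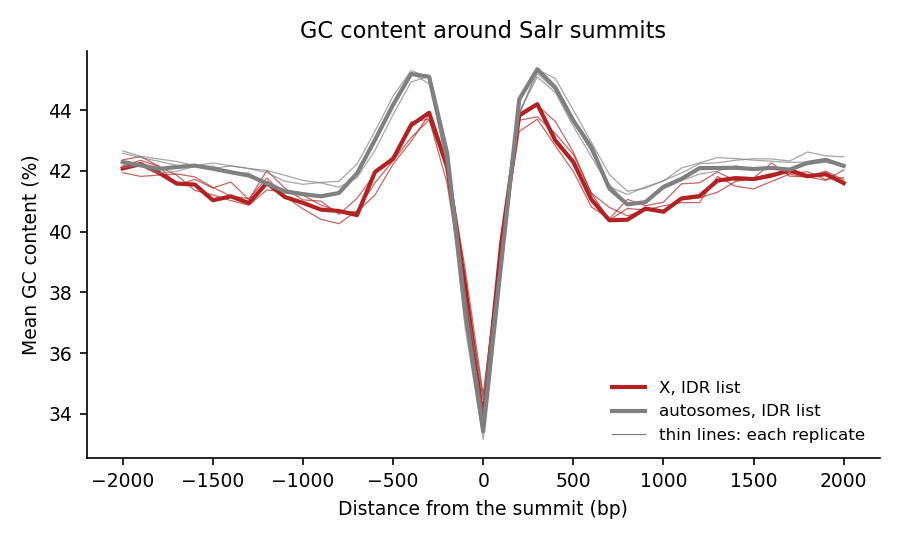
Mean GC content (%) in windows of 50 bases to each side, against distance from the summit (bp), for X peaks (red) and autosomal peaks (grey); thick lines are the IDR list and thin lines the 3 replicates. Both curves dip at the summit, and the shoulders 400 bp before it reach about 43.5% on the X and 45.2% on the autosomes.

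The X held 18.0% of the IDR peaks (Wilson interval 17.1 to 18.9) and 17.6% of the arm length. The best 6485 peaks of each replicate's own list put 18.1%, 16.6% and 17.4% on the X. Per megabase (Mb) the X held 49.6 peaks and the autosomes 48.2, a ratio of 1.03. The replicate ratios were 1.04, 0.935 and 0.985, on both sides of equality (exact sign-flip p = 0.75, n = 3). A difference in overall density was therefore not larger than the spread between replicates. X peaks also recurred about as often as the others, with 55.9% matched within 100 bp in all 3 replicates against 55.1% of autosomal peaks.

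Where the X peaks lay relative to genes differed from the autosomes. Only 90 X summits, 7.71% (6.32 to 9.39), were intergenic, that is outside every annotated gene and more than 500 bp from any start site. On the autosomes 21.3% were intergenic (20.2 to 22.4), and the 4 large arms ranged from 15.3% to 28.2%. In the replicates the X share was 8.41%, 7.32% and 6.39%, and the autosomal share 20.6%, 20.3% and 19.9%. The X value was below that of every large autosomal arm in each of the 3 replicates. The mean difference was -12.9 ± 0.704 percentage points, in the same direction in 3 of 3 (exact sign-flip p = 0.25, the smallest possible).

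Intergenic sequence made up less of the X, 22.6% against 28.2% of the autosomes. Per Mb of intergenic sequence the X held 16.9 summits and the autosomes 36.4, with 23.0 to 47.2 on the large arms. The replicates gave 15.7 ± 2.64 on the X and 34.9 ± 0.530 on the autosomes (SD, n = 3). Against the autosomes as a whole the lower density held at each distance from genes. Within 1 kb of a gene the X held 33.4 summits per Mb and the autosomes 56.1. From 1 to 5 kb the values were 19.2 and 47.5. Beyond 5 kb they were 9.33 and 21.1, from 23 X summits and 310 autosomal ones. Of the large arms 2R was closest to the X, at 39.5 within 1 kb, 34.4 from 1 to 5 kb and 11.8 beyond 5 kb. Within 1 kb in replicate 1 the X stood above 2R, at 41.4 against 40.5.

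**Figure D2:**
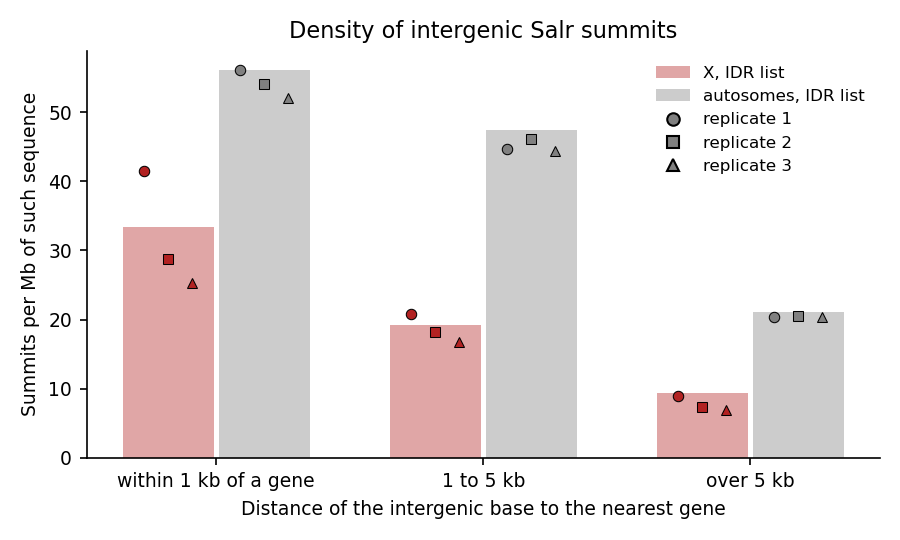
Intergenic summits per Mb of intergenic sequence at 3 distances from the nearest gene, for X (red) and autosomes (grey); bars are the IDR list and symbols the 3 replicates. In each distance class all 3 X symbols lie below all 3 autosomal symbols, as at 1 to 5 kb, where the bars stand at 19.2 and 47.5.

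The 5 strongest intergenic X summits, named after their values were seen, had their nearest start site at ct, CG43658, lncRNA:CR42794, Atf3 and PGRP-SA. The first, at chrX:7604495-7604833, scored 754 in the IDR list and lay 3741 bp from the nearest start of cut (ct), a homeodomain gene of wing margin and sensory organs. It was found in the 3 replicates with signal scores of 316, 218 and 211. The second, 951 bp from a start of CG43658, scored 669. PGRP-SA, a receptor for bacterial peptidoglycan, had its summit 1126 bp from a start, with a score of 478. The score is the depositors' own value per peak, whose scale is not given in the sources used here, and it ranks peaks only within 1 list. All 5 were matched in the 3 replicates.

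Introns held more of the X summits. They contained 669 X summits, 57.3% (54.5 to 60.1), against 46.8% on the autosomes and 43.1% to 50.7% on the large arms. The X replicates lay at 56.1%, 56.3% and 56.4%, and the autosomal ones at 47.5%, 43.7% and 44.0%. The mean difference was 11.2 ± 2.32 points, higher on the X in 3 of 3 (exact sign-flip p = 0.25). Introns also made up more of the X sequence, 43.3% against 38.6%. Per Mb of intron the X held 65.6 summits and the autosomes 58.4, with 54.5 to 63.0 on the large arms. In replicates 1 and 2 the highest large arm stood above the X, at 64.96 against 64.67 and 60.05 against 59.58.

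Long genes covered more of the X. Genes spanning more than 50 kb covered 29.8% of the X and 21.0% of the autosomes. Of the intronic X summits 38.3% (34.7 to 42.0) lay in such genes, against 34.9% (33.0 to 36.8) on the autosomes. Long noncoding genes cover 5.36% of the X and 0.192% of the autosomes. A further choice, added after the data were seen, used spans and starts of protein-coding genes only and kept the exons of all genes. With it, 27 of the 669 intronic X summits lost their host. The intergenic share was then 10.9% on the X and 23.5% on the autosomes.

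**Figure D3:**
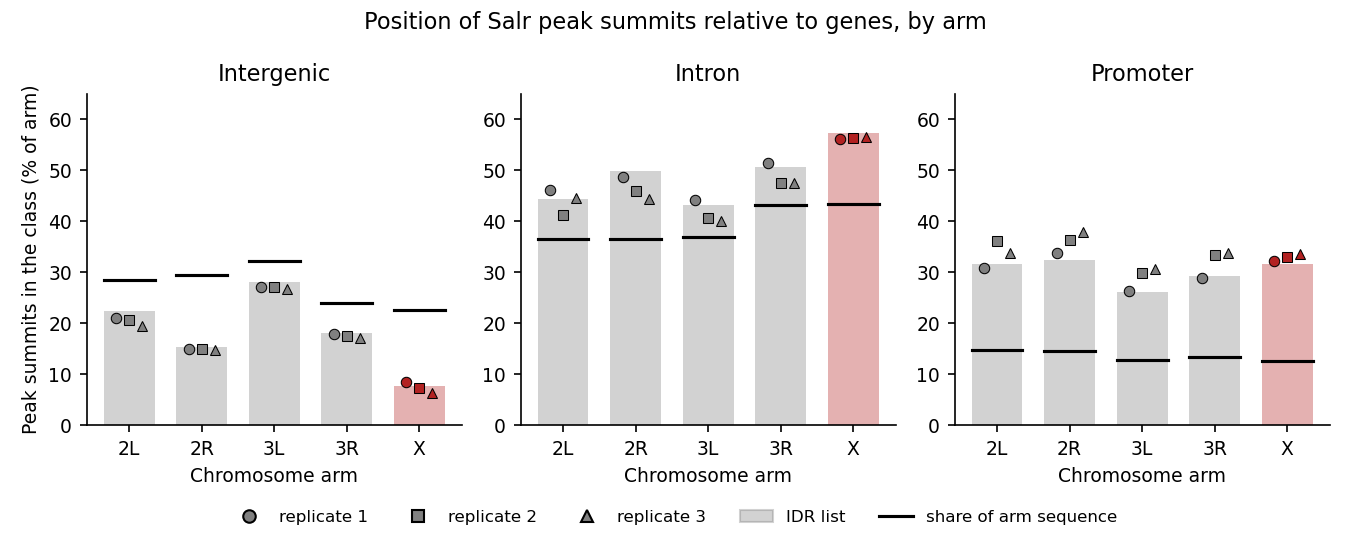
Share of peak summits (%) that were intergenic, in introns or within 500 bp of a start site on the X (red) and the 4 large autosomal arms (grey); bars are the IDR list, symbols the 3 replicates, and black lines the share of each arm's sequence in that class. The X has the lowest intergenic bar at 7.71% and the highest intron bar at 57.3%, while its promoter bar at 31.6% lies within the range of the arms.

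Promoters, here bases within 500 bp of an annotated start, held 31.6% of the X summits and 29.6% of the autosomal ones. The replicate differences were 2.55, -0.765 and -0.153 points, so the replicates did not share a direction (exact sign-flip p = 1, n = 3). Promoter density was high on both, at 124 summits per Mb of promoter sequence on the X and 104 on the autosomes. The replicates gave 128 against 104, 119.9 against 120.3 and 128 against 119, so the difference did not hold in replicate 2. The highest large arm stood above the X in replicates 2 and 3, at 128.1 and 132.0.

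Exons held few summits. In 3′ UTRs there were 12 X summits, 1.03% (0.589 to 1.79), and 22 autosomal ones, 0.414% (0.273 to 0.626). The X share was higher in 3 of 3 replicates, at 1.19% ± 0.1002 against 0.517% ± 0.135, and 3′ UTRs made up 5.92% of X and 4.11% of autosomal sequence. Coding exons held 5 of the X summits and 3 of the autosomal ones. The replicates gave 3, 1 and 3 on the X and 2, 6 and 5 on the autosomes, and in replicate 2 the X share, 0.0927%, was below the autosomal 0.111%. The 5, also named after the fact, lay in su(w[a]), CG1632, Dlic, bif and sgg, with scores from 118 to 162 and ranks from 4238 to 6348 of the 6485. None of these 5 was matched in all 3 replicates.

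Median X peaks had scores close to the rest, while the upper end of the X scores was lower. The median score was 191.7 on the X and 196.7 on the autosomes, a ratio of 0.975, and 0.994, 0.991 and 1.00 in the replicates. The 90th percentile was 442 on the X, below the 455 to 483 of the large arms. In each replicate the X value was likewise below every large arm, at 205 against 211 to 222 in replicate 1, 142.3 against 144.1 to 151.0 in replicate 2 and 113 against 114 to 120.4 in replicate 3. At promoters the 90th percentiles were 532 and 635, and in introns 402 and 416.

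Among the 100 best-ranked peaks 8% were on the X (4.11 to 15.0), and 6% to 12% in the replicates. Among the best 250 the share was 10.8%, with 12.3% ± 0.231 in the replicates (SD, n = 3). It was 15.2% of the best 500 and 16.8% of the best 1000. Beyond the list, 16.6% of the 30000 entries deposited for the pooled replicates were on the X. The share among the best 100 and 250 was thus below the 17.6% of arm length in the pooled list and in each replicate. Of the best 20 peaks 3, 15% (5.24 to 36.0), were X peaks in the pooled list, and 3 in every replicate.

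**Figure D4:**
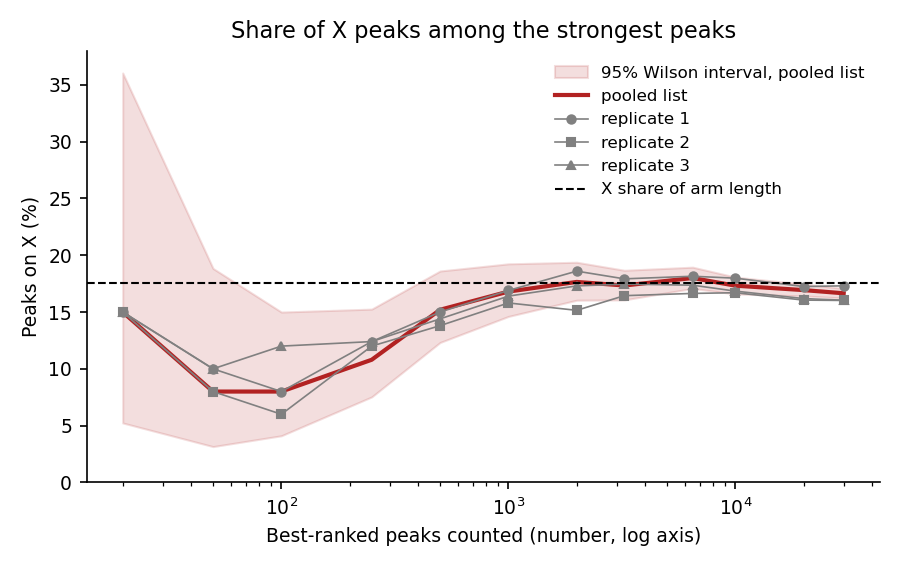
Share of peaks on the X (%) among the best-ranked peaks, by number counted (log axis), for the pooled list (red, with its 95% Wilson interval) and the 3 replicates (grey); the dashed line is the X share of arm length, 17.6%. The share is 8% among the best 100 pooled peaks and 18.0% among the best 6485.

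Spacing between neighbouring X summits had a median of 5246 bp, against 4717 bp on the autosomes. The X lay within the range of the large arms, 4077.5 to 5312 bp. It was also within their range in replicates 1 and 3, but above it in replicate 2, at 5666.5 bp against 5647 bp at most. The ratio of X to autosomes was 1.11 in the IDR list and 1.15, 1.09 and 1.04 in the replicates (exact sign-flip p = 0.25, n = 3). It turned to 0.980 when summits closer than 500 bp were merged and to 0.977 without replicate 1. Runs of at least 3 summits with gaps of at most 1 kb held 68 of the 1167 X summits, 5.83% (4.62 to 7.32), and 9.85% of the autosomal ones. The replicates did not share this difference, with 8.24%, 6.67% and 9.33% on the X against 9.93%, 9.86% and 9.07%. The difference of -1.54 ± 1.73 points was smaller than its spread (exact sign-flip p = 0.5). The longest X runs held 4 summits, at chrX:7095759-7097614 within Sxl and at chrX:16278038-16279691.

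Along the X the peaks were uneven. In bins of 1 Mb, the first held 29 peaks and the densest, from 6 to 7 Mb, held 87, where the replicates gave 80, 85 and 77. Other dense bins lay at 17 to 18 Mb with 85 peaks and at 13 to 14 Mb with 83. Towards the centromere there were 13 between 20 and 21 Mb, 28 between 21 and 22 Mb and 4 between 22 and 23 Mb. The widest gap, of 848 kb, began at position 21631682, and 0, 1 and 1 replicate summits lay inside it.

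The 20 strongest X peaks ranked from 2 to 205 among all 6485 and were matched in each replicate, with ranks down to 295, 269 and 336. Of these 9 lay at promoters, 9 in introns, 1 in a noncoding exon and 1 between genes. The strongest, at chrX:4910026-4910776 in an intron of CG32772, scored 1984, and ranked 1, 9 and 1 in the replicates, with scores of 942, 507 and 537. The span of that gene held 6 IDR summits, with 6, 5 and 5 in the replicates. The strongest peak at its start sites scored 716. The second and the fourth flank the start of the noncoding RNA gene lncRNA:CR44619, with 1851 and 1181 in the IDR list. The former lay in an exon of lncRNA:Vinr, whose span covers both.

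The other leading peaks lay at genes of varied roles. The third peak lay 47 bp from a start of Ugalt, the transporter of UDP-galactose into the Golgi, with 1549 in the IDR list and 712, 444 and 397 in the replicates. The peak at pdgy, an acyl-CoA synthetase gene, scored 975, and one in LPCAT, which encodes a lysophospholipid acyltransferase, also 975. The glycolytic gene Gapdh2 had 922 at its promoter, with 406, 259 and 264 in the replicates. Peaks also lay at dnc, the cyclic AMP phosphodiesterase (724), and at mgl, an endocytic receptor (786). The HMG-box gene bbx had one of 822.

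The rest of the 20 were near CG3726 (943), Pits (868), lncRNA:CR45668 (826), CG8034 (813), CR46447 (805), CG43736 (801), Mnt (788), ct (754), CG4586 (727) and Tlk (720). The peak nearest to the start of CR46447 lay 2564 bp from it, in an intron of the nuclear receptor gene Hr4. The one nearest to CG43736 lay in an intron of CG14434. Tlk encodes a kinase, and its peak lay in an intron. All of these scores are from the IDR list.

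Protein-coding genes with an IDR summit no more than 500 bp from a start are called bound here. On the X 312 of 2196 coding genes were bound, a background of 14.2%, against 12.2% on the autosomes and 12.5% over all arms. The replicate differences were 2.80, -0.0944 and 0.0448 points, which shows no direction beyond the spread (exact sign-flip p = 0.75, n = 3). Of the 312, 231 were bound in all 3 replicates, 74.0%, and 1 in none. A summit inside the annotated span, starts included, was found for 15.2% of X coding genes and 11.2% of autosomal ones. Noncoding genes were bound in 7.66% of cases on the X and 8.21% on the autosomes.

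The X-linked members of 17 lists, 117 genes in all, were bound in 35 cases, 29.9%. The lists name genes by role, from regulators to ribosomal proteins, and were not matched to other X genes. This share therefore stands beside the 14.2% of all X coding genes and nothing is read from it. The same holds for the share of each list below. No member of 3 lists was bound in the IDR list or in any replicate. These were dosage compensation (3 genes), the achaete-scute complex counted with its neighbour y (5) and JAK-STAT (5). Lists this small cannot tell 0 from the 14.2% of all X coding genes, so nothing is read from it. Of the dosage compensation genes, roX1 and roX2 are noncoding, a class bound in 7.66% of cases on the X.

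The dosage compensation genes were checked by name. The nearest IDR summit lay 4.59 kb from a start of roX1 (chrX:3857230-3862697), 18.5 kb from that of roX2 (chrX:11579065-11580432) and 3.83 kb from that of mof (chrX:5873840-5876853). No summit lay in the span of any of the 3, and none of the 30000 entries of a replicate list or of the pooled list lay within 500 bp of their starts. Of the achaete-scute genes, which make cells neural, ac lay 3.00 kb and ase 12.3 kb from a summit. The JAK-STAT receptor gene dome lay 14.9 kb and the kinase gene hop 5.35 kb from one.

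Of 6 X signal elements and sex determination genes 1 was bound (16.7%), beside the 14.2% of all X coding genes. This was Sxl, the switch gene of female development, with a score of 216 and 113, 53.6 and 56.0 in the replicates. The median score of X promoter peaks in the IDR list was 213. Sxl held 4 summits in its span, while run and sc had none. Of 8 wing genes 2 were bound (25%, background 14.2%). The peak at ct scored 278, and 126, 62.2 and 89.7 in the replicates. The peak at sd, the TEAD factor of the wing, scored 127 and was found in 2 of 3. The T-box gene bi had 4 summits in its span and the LIM-only gene Bx had 11, but neither had one at a start.

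Of 6 Wnt and Hedgehog genes 1 was bound (16.7%), the GSK-3 kinase gene sgg at chrX:2633952-2679553. Its promoter peak scored 572, with 273, 184 and 115.1 in the replicates, and 5 summits lay in its span. The β-catenin gene arm and dsh had none. In the receptor tyrosine kinase and MAP kinase list 1 of 5 was bound (20%, background 14.2%). It was the phosphatase gene csw, with 195 in the IDR list, and was bound in 2 of 3 replicates. The kinase gene Raf, at chrX:2295466-2343870, had 12 summits in its span and none at a start, and the replicates put 12, 12 and 13 there. Dsor1 had 1 in its span and hep 0. None of 4 BMP and activin genes was bound in the IDR list, though cv was bound in replicate 3 and Smox in replicate 1.

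Of 5 ecdysone genes 1 was bound (20%), usp, the partner of the ecdysone receptor. It had a score of 121 near the end of the list and was bound in 1 of 3 replicates. The span of Actn ends at the same base as that of usp. The early gene br had 2 summits in its span and the hormone-degrading gene Cyp18a1 had none. The nuclear receptor gene Hr4, at chrX:1941940-2007956, had 12 in its span, with 11, 9 and 9 in the replicates, and none at its 2 starts.

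Both the patterning and the chromatin list had bound members. Of 12 patterning transcription factors 2 were bound (16.7%, background 14.2%). They were the head genes oc (192) and btd (175), both in 3 of 3 replicates. The Bar genes B-H1 and B-H2 were not bound. Of 9 chromatin regulators 5 were bound (55.6%, background 14.2%). The Polycomb gene ph-p, at chrX:2126210-2138371, had the highest score, 667, with 209, 263 and 247 in the replicates, and ph-d had 216. Both are near-identical neighbours, so how their reads were divided is uncertain. The acetyltransferase gene nej had 247 and Top1 had 190, both in 3 of 3 replicates. The fifth, the BET protein gene fs(1)h, had 131 and was found in 2 of 3. Bap60 and dwg were not bound.

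Growth and adhesion genes had peaks inside as well as at starts. Of 6 genes in the cell cycle and growth list 1 was bound (16.7%), Mnt, which opposes Myc. Its promoter scored 203 while its span held 13 summits, or 4.35 per 10 kb, with 15, 14 and 15 in the replicates. Cdk7 and CycD had none. Of 13 adhesion and recognition genes 6 were bound (46.2%, background 14.2%). The receptor phosphatase gene Ptp4E, at chrX:4939128-4955916, scored 524, with 256, 145 and 123 in the replicates. The immunoglobulin gene dpr14 scored 239, the integrin gene if 222 and the cell adhesion gene Fas2 196, each in 3 of 3. Appl and dpr18 were not bound.

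Among 9 ion channel and excitability genes 3 were bound (33.3%, background 14.2%). They were the potassium channel subunit gene Hk (310), the phospholipase C gene norpA (213) and the channel gene Sh (132). Hk was found in 3 of 3 replicates and Sh in 2. The channel genes cac and eag had no peak. On the list named muscle structure 2 of 4 genes were bound (50%, background 14.2%). They were the cytoplasmic actin gene Act5C with 444, and 148, 75.9 and 118 in the replicates, and fliI with 296. Actn was bound in replicate 2 only, and wupA in none. Of 7 eye pigment genes 2 were bound (28.6%, background 14.2%), the adaptor complex genes cm (266) and g (213), and dor was not. The trafficking gene car was bound in replicate 3 only.

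Ribosomal protein genes of the cytoplasm were bound in 8 of 14 cases (57.1%, background 14.2%), with low scores. The highest were RpS5a (178), RpS10b (168), RpS28b (168) and RpS6 (149), each bound in 3 of 3 replicates. The counts were 6, 7 and 6 in the replicates. RpL17 and RpL35 were not bound. RpS14a and RpS14b are near-identical neighbours, of which RpS14b was bound with 120 in the IDR list, and reads of the pair may have been divided between them.

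**Figure D5:**
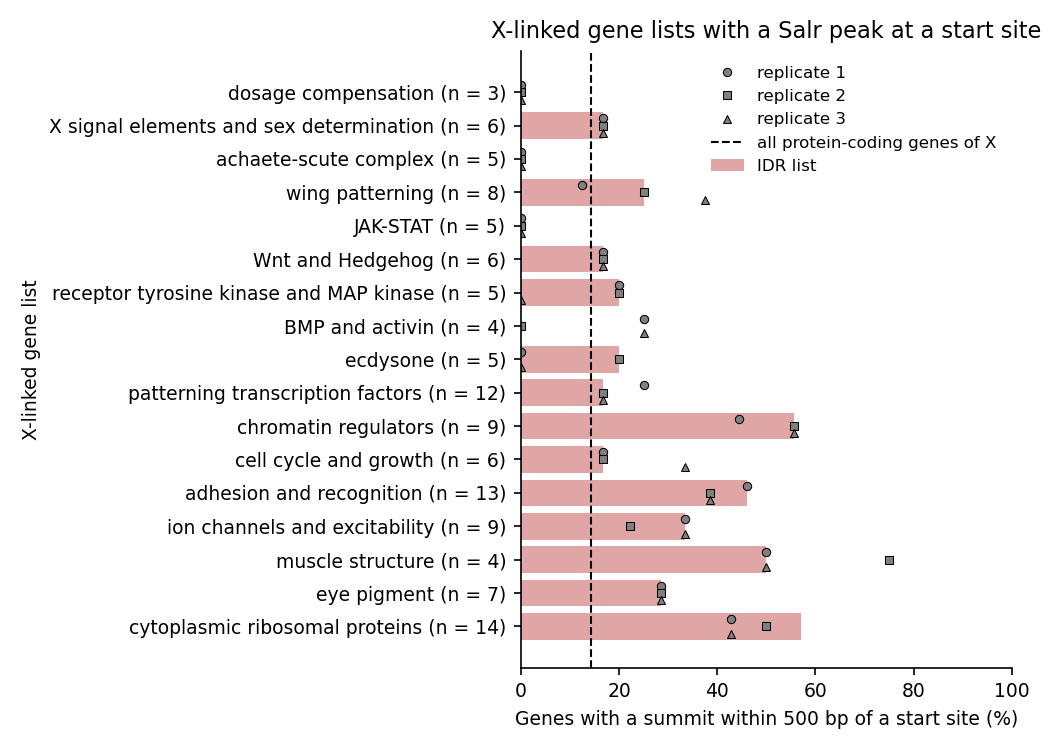
Share of each X-linked list (%) with a summit within 500 bp of a start site, with bars for the IDR list and symbols for the 3 replicates; the dashed line is the 14.2% of all coding genes of the X. Cytoplasmic ribosomal proteins (8 of 14) and chromatin regulators (5 of 9) have the longest bars. Dosage compensation (3 genes), achaete-scute with y (5) and JAK-STAT (5) genes stand at 0 in the IDR list and in each replicate. These lists are too small to tell 0 from 14.2%.

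The X genes with the most summits in their span were long. The noncoding gene lncRNA:CR44357 held 23, with 24.0 ± 2.00 in the replicates (SD, n = 3), over 239 kb. The coding gene CG1677 lies inside it and held 20. The cell fusion gene kirre held 22, with 22.0 ± 1.00, over 394 kb. Per 10 kb of span the 10 leading genes held from 0.558 summits in kirre to 4.35 in Mnt. The whole X held 49.6 peaks per Mb, so the count of kirre was near that rate for its length. lncRNA:CR44999, whose span starts with that of Myc, held 21, CG43658 held 16, Tlk 13 and lncRNA:CR44833 12. Of the 10 leading genes kirre, CG43658, Mnt and Tlk were bound at a start in the IDR list, and the other 6 were not. The start-site peak of kirre scored 125, near the lowest score of the list, 116, and was found in 1 of 3 replicates. CG43658, Mnt and Tlk were bound in 3 of 3.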

How the data were processed

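The deposited peak lists on dm6 were used: an IDR-thresholded list, a list on the pooled replicates and 1 list of 30000 entries per replicate. Each peak carries a signal score from the authors. The peaks were called against a shared control alignment, per the deposited notes on the files. The score's scale, the aligner, the caller and the IDR threshold were not given in the sources used here, and read depth is unknown. The X peaks and the gene lists were chosen with earlier results of these data known.

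Summits were assigned to classes with Ensembl release 115 genes (BDGP 6.54, without transposable elements), where a promoter (500 bp) outranked exons, exons outranked introns and the rest was intergenic. The replicate values came from the best 6485 peaks of each replicate list by score. Base composition was read from the Release 6 genome in windows of 100 bases to each side. Words were searched on both strands. X was set against autosomes within each replicate with an exact two-sided sign-flip permutation test. Wilson 95% intervals cover counting error only, since neighbouring peaks are not independent. Named genes are those nearest to the 20 strongest X peaks, the 10 with most summits in their span, up to 4 bound and 2 unbound members of each list, roX1, roX2 and mof. The gene phm of the ecdysone list matched 3 entries and was left out. Raf was matched through an older symbol. Python 3.11.15, numpy 2.4.6, pandas 2.3.3, SciPy 1.17.1 and matplotlib 3.10.9 were used. The counting steps were tested on simulated summits. The dm3 lists of single replicates were not used.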

Additional observations from a re-analysis of the deposited data

How the results depend on the processing

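Of 75 alternative values of 9 results, 40 stayed within the replicate SD of the main value, 28 moved further and 7 moved further and changed direction; 1 of the 40, the density ratio of 0.983 in the stronger 3242 peaks, also fell below 1. For none of these was the cause tested. The lower intergenic share on the X kept its direction under every alternative. The difference was -11.7 points in the stronger 3242 peaks, -10.6 among the 1000 strongest and -12.0 with a promoter window of 1000 bp. With 1 replicate left out it was -12.7 to -12.0. It was -12.7 with spans and starts of protein-coding genes alone and exons of all genes kept (added after the data were seen). The higher intron share was 5.002 points among the 1000 strongest and 12.9 with a promoter window of 250 bp. The promoter difference was 4.68 among the 1000 strongest and -0.498 with the 250 bp window. The density ratio also turned to 0.946 among the 1000 strongest, 0.936 on the dm3 list and 0.898 per length from first to last summit. The X share of the 1000 strongest was 16.8%. The ratio of median scores was 0.999 in the stronger 3242, 0.957 among the 1000 strongest, 0.967 on dm3, 0.963 at promoters, 0.992 outside them and 0.969 to 0.987 with 1 replicate left out. The spacing ratio was 1.04 in the stronger 3242, 1.20 among the 1000 strongest, 0.980 with close summits merged and 0.977 to 1.07 with 1 replicate left out. The GC difference was 1.39 points in the stronger 3242, 1.93 among the 1000 strongest, 0.349 and 0.168 with windows of 50 and 250 bp each side, and 0.854 to 1.06 with 1 replicate left out. The difference in bound coding genes was -0.319 points among the 1000 strongest and 0.322 with the 250 bp window. Leaving out a replicate kept only IDR peaks matched in both others, 733 to 781 of them on the X. No read counts were used, so depth sets no limit that can be stated, and 3 replicates of 1 group cannot give a p below 0.25.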
